A study of Mus musculus with 2 samples.

Results

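The 30 genes described here make cholesterol or control how much of it a cell makes, holds and passes on. They were chosen by name, as 20 enzymes of cholesterol synthesis, 5 genes of sterol sensing and 5 of sterol transport, and all 30 are among the 20210 genes of the merged count table. They were followed across cell classes of the mouse arcuate nucleus and median eminence, and between 2 libraries of single cells, 1 for each genotype. The control library came from Ins2-Cre;tdTomato+/- mice. The other, called dHet here, came from Ins2-Cre;tdTomato+/-;Irx3/5+/- mice, which carry a single working copy of the transcription factor genes Irx3 and Irx5. Both groups were CD-1 mice at postnatal day 10, both carry the Cre and the reporter, and each library is 1 pool of 5 mice per the sample labels. Cells were kept by a sort for tdTomato, which marks cells in which the Ins2 promoter was active at any time before, and for exclusion of a dead-cell dye, so the classes below are the sorted members of each type and not the whole tissue.

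Cholesterol hardly crosses from blood into brain, and the brain makes its own. Acetyl-CoA is turned into mevalonate and isoprenoid units, these are joined into squalene, squalene is closed into the ring of lanosterol, and a last series of steps turns lanosterol into cholesterol. The transcription factors SREBP-1 and SREBP-2 (genes Srebf1 and Srebf2) switch these genes on when membrane sterol is low: SCAP escorts them to the Golgi for cleavage, and the INSIG proteins hold SCAP back when sterol is plentiful. Developing astrocytes and myelinating oligodendrocytes are known as large producers, and astrocytes hand cholesterol to neurons on lipoproteins that contain apolipoprotein E. The level of a gene is given below in CPM, its UMIs per 1000000 UMIs of all cells of a class, where a UMI is 1 captured RNA molecule.

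With 1 library a genotype there is no replicate and no test between genotypes. The 95% intervals given are exact, cover counting error only, and leave out differences between mice, pools and preparations, so genotype and library cannot be told apart. The kept cells numbered 3426 in the control and 3890 in the dHet library, with 62720581 and 71580140 UMIs and a median of 16723 and 17365 UMIs a cell. The libraries shared 4 cell barcodes, 0.115% of those of the control. Over all kept cells Irx3 had 92 UMIs in the control and 42 in dHet, a CPM ratio of 0.400 (0.271 to 0.582), and Irx5 had 179 and 108, a ratio of 0.529 (0.412 to 0.675). The astrocyte-like class held 62 and 21 of these Irx3 UMIs (24.3 and 7.02 CPM) and 106 and 68 of the Irx5 UMIs (41.6 and 22.7 CPM). A pair of other measures moved with the library. The median share of mitochondrial UMIs was 4.73% in the control and 5.98% in dHet, and Fos, an immediate early gene that responds to activity and to dissociation, was at 211 CPM in control and 67.8 CPM in dHet neuron-like cells. Their part in the results below was not tested.

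Promoter sequences of some members are printed below with known motifs marked, and control through them was not measured. Of the 30 genes, 25 have an entry in the RefSeq promoter table (GRCm38.p6), with 35 windows of 300 bases, 250 before and 50 after each start. Each line gives the 250 bases before the start on the gene's strand, 5′ to 3′. Capitals mark the sterol regulatory element consensus TCACNCCAC, to which SREBPs are known to bind, and the CCAAT box, the NF-Y site, which reads ATTGG where it lies on the opposite strand. Hmgcs1 (chr13:119690101-119690350, + strand) is shown because it is the gene whose window held the SRE consensus. Insig1 (chr5:28071162-28071411, + strand), Mvd (chr8:122443423-122443672, - strand) and Lss (chr10:76531355-76531604, + strand) are shown because their levels in astrocyte-like cells differed most between the libraries among genes with an entry and over 200 UMIs in that class.
Hmgcs1: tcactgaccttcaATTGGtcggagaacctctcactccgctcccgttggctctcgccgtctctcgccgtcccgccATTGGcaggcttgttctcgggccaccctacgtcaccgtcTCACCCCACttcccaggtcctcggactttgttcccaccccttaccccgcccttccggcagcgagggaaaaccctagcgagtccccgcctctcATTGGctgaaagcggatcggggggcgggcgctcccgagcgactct
Insig1: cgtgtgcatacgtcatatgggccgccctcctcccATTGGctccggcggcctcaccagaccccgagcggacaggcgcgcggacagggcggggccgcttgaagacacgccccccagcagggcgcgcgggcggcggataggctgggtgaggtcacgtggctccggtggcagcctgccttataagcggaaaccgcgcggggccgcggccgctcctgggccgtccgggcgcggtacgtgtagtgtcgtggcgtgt
Mvd: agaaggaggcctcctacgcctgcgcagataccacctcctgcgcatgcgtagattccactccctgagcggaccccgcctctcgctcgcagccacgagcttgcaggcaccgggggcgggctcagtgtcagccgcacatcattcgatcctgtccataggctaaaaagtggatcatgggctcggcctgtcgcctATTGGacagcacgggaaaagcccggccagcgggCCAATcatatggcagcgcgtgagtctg
Lss: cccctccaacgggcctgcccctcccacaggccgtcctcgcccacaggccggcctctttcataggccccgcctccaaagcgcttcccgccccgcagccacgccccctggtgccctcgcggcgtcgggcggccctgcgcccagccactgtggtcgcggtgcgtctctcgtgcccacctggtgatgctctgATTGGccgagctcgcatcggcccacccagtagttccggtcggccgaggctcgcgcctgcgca

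In all, 4 motifs were searched on both strands of the whole windows. The SRE consensus TCACNCCAC was in 1 of the 25 genes, Hmgcs1, where it begins 137 bases before the start, and in 1.44% of the 27025 genes of the table (1.24% of 32851 windows). The same letters with C for N and an A before them, which overlap the consensus, were in 0 of 25 genes and in 0.0999% of genes. The CCAAT box was in 21 of the 25 genes, 16 of 17 enzymes among them, against 41.1% of all genes. The GC box GGGCGG, the Sp1 site, was in 22 of the 25 genes against 38.2%. A gene counted if any of its windows held the motif. The 25 genes had 35 windows and so more windows per gene than the whole table, which raises their shares. These are letter matches in a window near the start, and no binding was measured.

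In both libraries the enzymes of cholesterol synthesis stood highest in astrocyte-like cells. The 20 enzymes together reached 4108 CPM (4029 to 4187) in the 414 control cells of that class and 4945 CPM (4865 to 5025) in the 425 dHet cells. Oligodendrocyte-like cells followed with 2863 and 3394 CPM (29 and 39 cells), then oligodendrocyte precursor-like cells with 2203 and 2211 CPM (95 and 79 cells). Neuron-like cells held 1296 and 1311 CPM (2263 and 2914 cells). Tanycyte-like cells, the glia that line the floor of the third ventricle, were at 833 and 867 CPM (247 and 177 cells), and ependymal-like cells at 794 and 745 CPM (28 and 25 cells). The order of the classes was the same in both libraries. The place of oligodendrocyte-like cells above precursor-like cells did not hold without the 5 richest cells of each class and library, as given below. The counting intervals of tanycyte-like and ependymal-like cells overlapped, and no other neighbours in this order did.

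Relative to neuron-like cells of the same library, the summed enzymes were 3.17-fold higher in control astrocyte-like cells (3.10 to 3.24) and 3.77-fold higher in dHet astrocyte-like cells (3.71 to 3.84). In tanycyte-like cells they were at 0.643 of the neuronal level in the control and 0.662 in dHet. Astrocyte-like cells are shallower than neuron-like cells, with a median of 5692 UMIs in the control against 22801, so each cell was also thinned to 4000 UMIs. At that depth a control astrocyte-like cell held a median of 15 enzyme UMIs (310 cells), a control neuron-like cell 4 (2175 cells) and a control tanycyte-like cell 2 (233 cells). The class named oligodendrocyte-like rests on few cells. Without the 5 cells richest in enzyme UMIs of each library, its level was 1.14 times the neuronal one in the control, where all cells gave 2.21, and 1.54 in dHet, where all cells gave 2.59. Precursor-like cells without their 5 richest cells were at 1.62 and 1.59, so the order of these classes turned in both libraries. The cells left out were chosen by the same UMIs, so each level had to fall. They are also a larger share of 29 and 39 oligodendrocyte-like cells than of 95 and 79 precursor-like cells. In dHet the order held after thinning and with cells weighted equally, as given below.

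**Figure D1:**
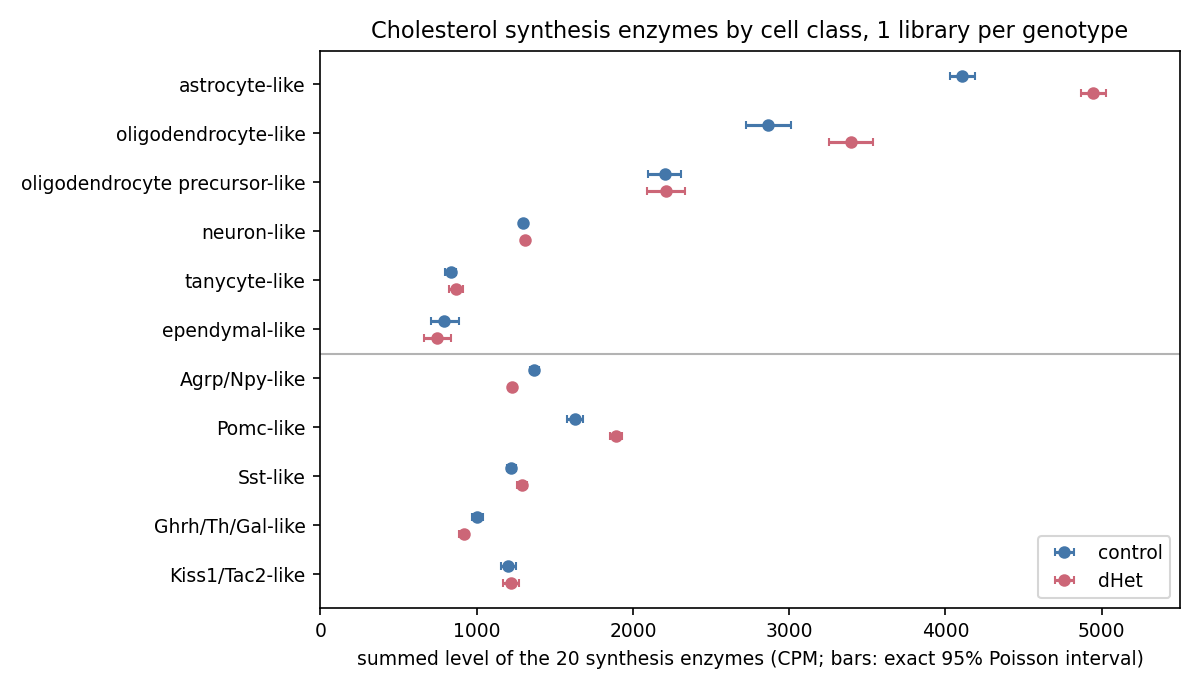
Summed level of the 20 cholesterol synthesis enzymes (x axis, CPM) in 6 broad classes above the line and 5 neuron types below it (y axis), with 1 point per library and exact 95% Poisson intervals. Astrocyte-like cells stand highest in both libraries, at 4108 CPM in the control and 4945 CPM in dHet, and tanycyte-like cells at 833 and 867 CPM.

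Markers were checked in each class. All 10 astrocyte markers (among them Aqp4 and Agt) were each found in at least 25% of astrocyte-like cells and summed to 16695 CPM in the control and 15851 CPM in dHet, and 11 of 12 tanycyte markers (Rax and Crym among them) were found at that share in tanycyte-like cells. Tanycyte-like cells also held 8 of 10 astrocyte markers at that share (4096 and 4021 CPM) and 6 of 8 ependymal markers (1217 and 1098 CPM). The neuron-like class includes 5 named types and other neurons. Of their own lists, Agrp/Npy-like cells held 4 of 5 markers at that share, Pomc-like cells 6 of 6 and Sst-like cells 4 of 5. Ghrh/Th/Gal-like cells held 7 of 7 and Kiss1/Tac2-like cells 5 of 6. The Agrp/Npy and Sst lists share Otp and Sst. Oligodendrocyte-like cells held 6 of 8 oligodendrocyte markers at that share, and also 6 of 8 precursor markers, which summed to 4538 and 3884 CPM. The cells called dividing were led by Epcam and Wfdc2 beside Top2a and Mki67 and are mixed: dividing markers summed to 2605 and 3338 CPM, pars tuberalis and pituitary markers to 5653 and 4417 CPM, and precursor markers to 2804 and 2783 CPM.

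The genes of the pathway did not share 1 pattern across classes. The class with the highest level was the same in both libraries for 25 of the 30 genes, and it was the astrocyte-like class for 18 of these. Among the mevalonate steps, Idi1, the isomerase that readies isoprenoid units for joining, was at 374 CPM in control astrocyte-like cells against 53.1 CPM in control neuron-like cells, and at 421 against 48.2 CPM in dHet. Msmo1, a methylsterol oxidase of the steps after lanosterol, was at 873 against 117 CPM in the control and 1109 against 114 CPM in dHet. Hsd17b7, a reductase of the same steps, was 9.79-fold higher in control astrocyte-like than in control neuron-like cells, and 13.4-fold higher in dHet.

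Some members stood lower in astrocyte-like than in neuron-like cells of both libraries. Ebp, the sterol isomerase, was at 0.348 of its neuronal level in the control and 0.520 in dHet. Insig2, the INSIG protein whose gene is not known as a strong SREBP target, was at 0.390 and 0.453, while its paralog Insig1 was 6.38-fold and 10.0-fold higher in astrocyte-like cells. Ggps1, which makes the geranylgeranyl group attached to proteins and so leads away from sterols, was at 0.643 and 0.646. Pmvk, phosphomevalonate kinase, was at 0.641 and 0.822. Acat2, Fdps and Npc2 were highest in oligodendrocyte-like cells of both libraries, Npc1 in oligodendrocyte precursor-like cells, and Lbr, a sterol reductase that is also a protein of the nuclear envelope, in dividing cells.

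The 3 genes with the widest ratios of astrocyte-like to neuron-like cells were Apoe, Abca1 and Srebf1. Apoe was at 25237 CPM in control and 25387 CPM in dHet astrocyte-like cells, against 19.3 and 26.2 CPM in neuron-like cells. Abca1, which loads cholesterol onto apolipoproteins, was 85.5-fold higher in control astrocyte-like than neuron-like cells and 66.7-fold in dHet. Srebf1 was 27.5-fold higher in the control and 22.9-fold in dHet. Srebf2 was 2.35-fold and 2.18-fold higher. Neuron-like cells also held some Apoe UMIs, and whether these came from free RNA, doublets or the cells themselves was not tested. At 4000 UMIs, 5.84% of control and 6.26% of dHet neuron-like cells held an Apoe UMI, against 100% of astrocyte-like cells in both. The same thinned cells held an Insig1 UMI in 9.01% and 9.95% of neuron-like cells, and in 49.0% and 62.0% of astrocyte-like cells.

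**Figure D2:**
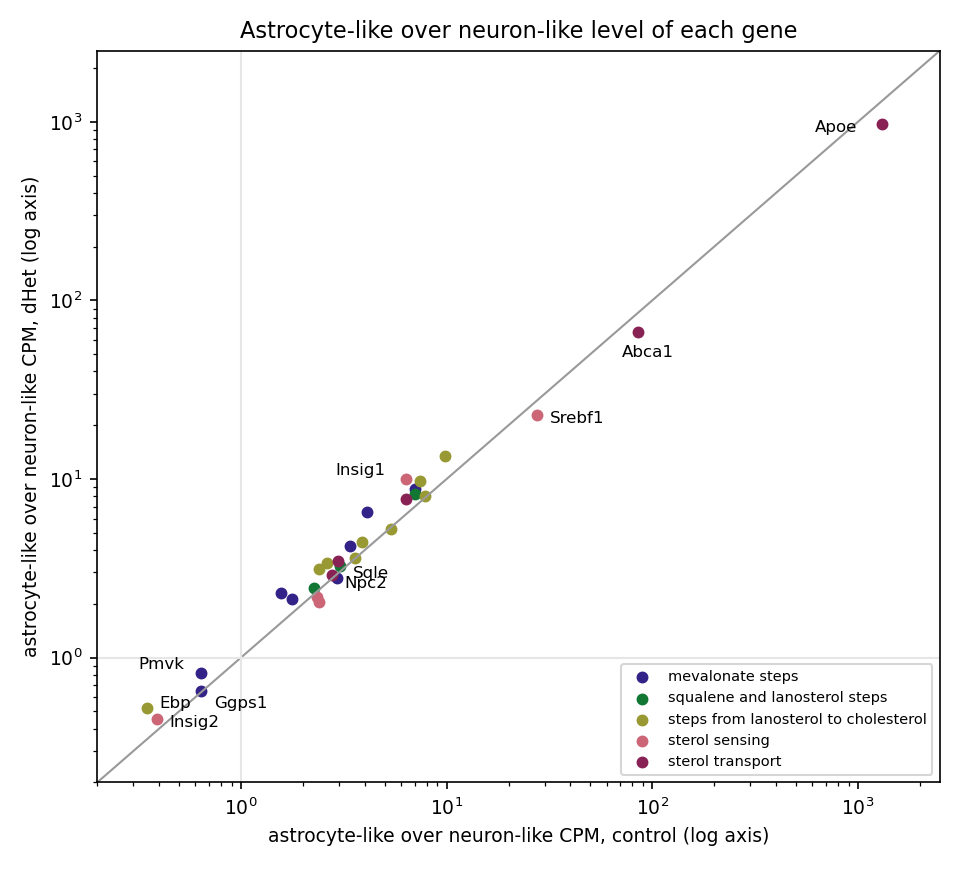
Each point is 1 of the 30 genes: its CPM in astrocyte-like over neuron-like cells in the control library (x axis, log scale) and in the dHet library (y axis, log scale), coloured by role, with the line of equality. Ebp, Insig2, Ggps1 and Pmvk lie under 1 on both axes, and Apoe, Abca1 and Srebf1 are the 3 points farthest to the right.

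Between the genotypes, most enzymes of astrocyte-like cells stood higher in the dHet library. By any amount 17 of 20 had a higher CPM, where the median log2 ratio over all genes was -0.01. The summed level was 1.20-fold that of the control (1.17 to 1.23), and it was similar for each stretch of the pathway. The ratio was 1.23 (1.18 to 1.27) for the mevalonate steps, 1.22 (1.14 to 1.31) for squalene and lanosterol formation and 1.18 (1.13 to 1.22) for the steps from lanosterol to cholesterol. For single genes, log2 ratios were taken with 5 CPM added to both sides, and a gene was counted as past the fold where its level in 1 library was at least 25% above that in the other. Of the 30 members, all of them with at least 50 UMIs in this class, 9 were higher in dHet by that fold and 1 was lower. Over the 9635 genes measured in the class 11.4% were higher and 11.9% lower. The median log2 ratio was 0.23 for the 30 genes and 0.28 for the 20 enzymes, against -0.01 over all genes. Over all kept cells together 0 members were higher by the fold (0.628% of 15605 genes) and 1 was lower (2.71%), Srebf1, at 22.8 and 14.5 CPM (0.635, 0.585 to 0.688), and the classes take unequal shares of the libraries. In astrocyte-like cells the count of higher members was 16 when each cell had equal weight and 1 at a fold of 1.5.

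The first steps held some of the wider differences. Mvd, the decarboxylase that makes isopentenyl diphosphate, was at 110 CPM in the control and 164 CPM in dHet, a ratio of 1.48 (1.28 to 1.72). Fdps, farnesyl diphosphate synthase, was at 187 and 268 CPM, a ratio of 1.43 (1.28 to 1.61). Its reads can be shared with processed copies in the genome, so its level is less certain. Acat2, which joins the first acetyl units, was at 111 and 152 CPM, a ratio of 1.37 (1.18 to 1.60). Hmgcs1, the synthase that leads into mevalonate and carries the SRE printed above, was at 688 and 851 CPM, a ratio of 1.24 (1.16 to 1.32), just under the fold. Mvk, mevalonate kinase, went the other way, with 119 CPM in the control and 101 CPM in dHet (0.847, 0.720 to 0.997).

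Among the later enzymes, Lss, which closes squalene epoxide into lanosterol, was at 59.2 CPM in the control and 88.3 CPM in dHet, a ratio of 1.49 (1.22 to 1.83). Msmo1 was at 873 and 1109 CPM, a ratio of 1.27 (1.20 to 1.34), and Hsd17b7 at 54.5 and 75.3 CPM, a ratio of 1.38 (1.11 to 1.72). Ebp was at 18.0 and 27.8 CPM, a ratio of 1.54 with the wide interval of a low count (1.06 to 2.26). The pathway did not move as a block. Cyp51, lanosterol demethylase, was at 314 CPM in the control and 305 CPM in dHet (0.970, 0.881 to 1.07), and Dhcr7, the reductase of the last step, at 208 and 205 CPM (0.990, 0.880 to 1.11). Their intervals leave out a difference as wide as that of Lss.

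The genes that sense and move sterol divided. Insig1, itself a known SREBP target, was at 160 CPM in the control and 260 CPM in dHet, a ratio of 1.62 (1.43 to 1.83) and the widest of the 30 genes in this class. Stard4, a small carrier that shuttles cholesterol between membranes and is also a known SREBP target, was at 52.6 and 81.3 CPM, a ratio of 1.55 (1.247 to 1.924). Srebf1 and Abca1 stood lower in dHet. The activity of the SREBPs or of other sterol-responsive factors was not measured. Srebf1 was at 152 CPM in the control and 111 CPM in dHet (0.732, 0.630 to 0.849), and Abca1 at 228 and 182 CPM (0.800, 0.710 to 0.901). Srebf2, Scap, Npc1 and Apoe had intervals that include 1, with ratios from 0.927 for Scap to 1.01 for Apoe.

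**Figure D3:**
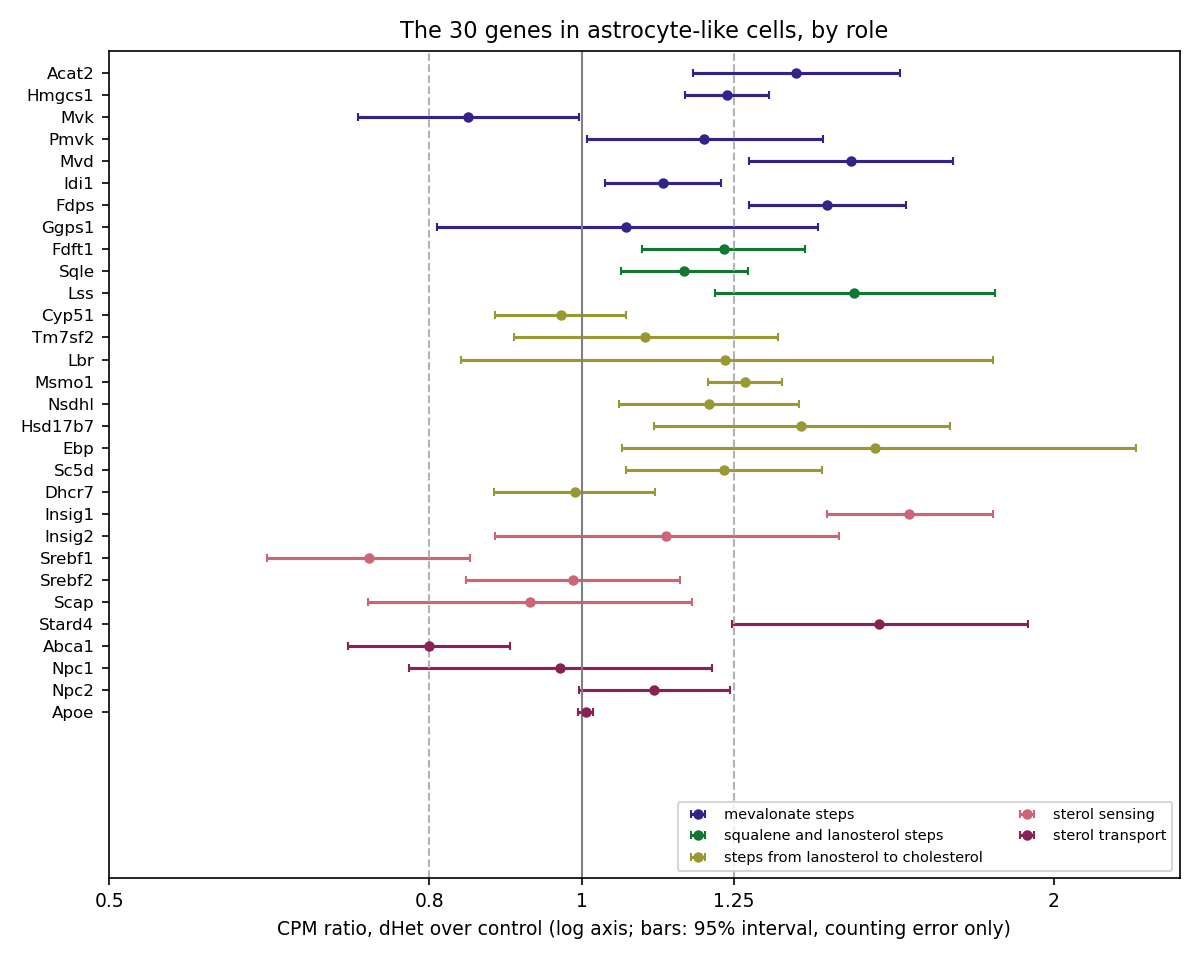
CPM ratio of dHet over control (x axis, log scale) for each of the 30 genes (y axis, coloured by role) in astrocyte-like cells, with 95% intervals for counting error and dashed lines where 1 library is 25% above the other. Insig1 lies farthest right at 1.62 and Srebf1 farthest left at 0.732, while Cyp51 (0.970) and Dhcr7 (0.990) lie on the line at 1.

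Per cell, the class was compared after thinning to 4000 UMIs, which leaves out shallower cells. There the median astrocyte-like cell held 15 enzyme UMIs in the control (quartiles 10 and 21, 310 cells) and 20 in dHet (quartiles 14 and 26, 353 cells). The 5 richest cells held at most 10.1% of any member's UMIs, the share reached by Ebp. The class is made of 2 clusters, on opposite sides of 1. In the cluster that holds most cells (339 control, 385 dHet), led by Agt, Ednrb and Pla2g7, the enzymes were at 4258 and 5199 CPM, a ratio of 1.22 (1.190 to 1.253). In the smaller one (75 and 40 cells), led by Fgfr3 and Atp13a4 and with a median depth of 0.188 of the library median, they were at 2863 and 2446 CPM, a ratio of 0.854 (0.770 to 0.948). Its median mitochondrial share was 10.9% in the control and 7.53% in dHet.

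Neuronal RNA in the class differed between the libraries. The 10 neuron markers summed to 216 CPM in control and 607 CPM in dHet astrocyte-like cells, with none of them at 0, against 6371 and 6247 CPM in neuron-like cells. In the control 45.4% of astrocyte-like cells held no UMI of those markers, and in dHet 23.3%. Over these cells alone the enzyme ratio was 1.23. The median depth of the class was 5692 UMIs in the control and 6497 in dHet, and over thinned cells the ratio was 1.27. The mitochondrial share was 6.52% and 6.76%, and of 9 measured immediate early and dissociation genes 3 were higher by the fold and 3 lower.

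**Figure D4:**
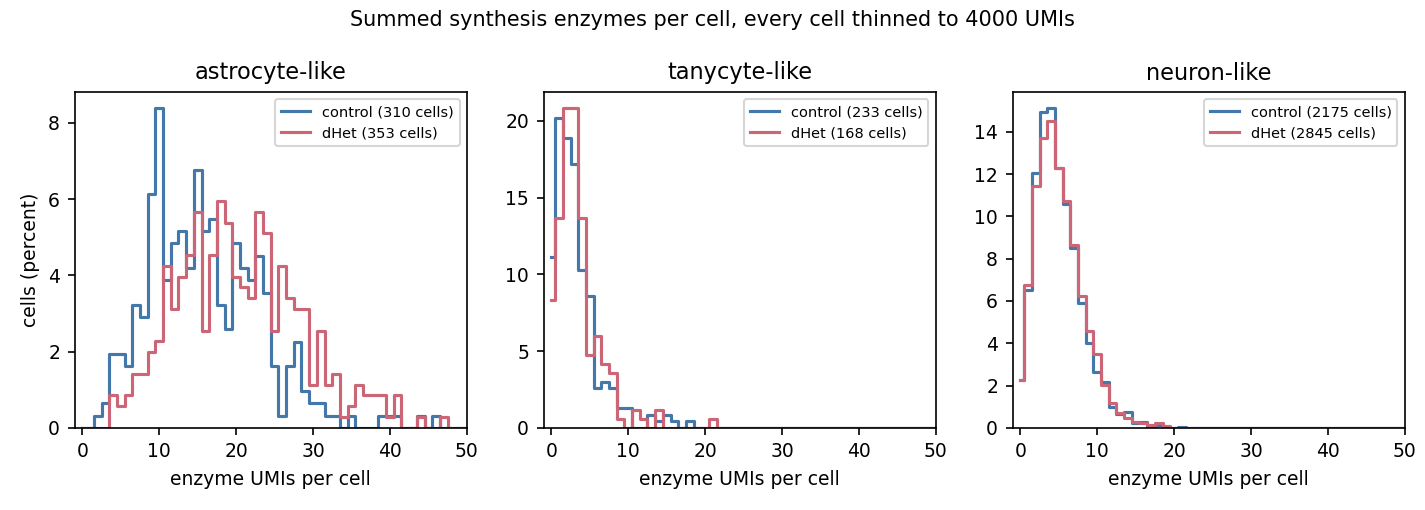
Share of cells (y axis, percent) by the number of synthesis enzyme UMIs in the cell (x axis, values above 50 drawn at 50) after each cell was thinned to 4000 UMIs, for 3 classes and both libraries. The dHet astrocyte-like curve lies to the right of the control curve (medians 20 and 15), and the curves of neuron-like cells lie on top of each other (medians 5 and 4).

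Within a library, cells with more UMIs of the mevalonate enzymes also tended to hold more of the later ones. Across thinned astrocyte-like cells Pearson's r between the 2 sums was 0.461 in the control (310 cells) and 0.395 in dHet (353 cells). It was 0.438 and 0.486 across tanycyte-like cells (233 and 168 cells) and 0.250 and 0.274 across neuron-like cells (2175 and 2845 cells). These describe cells of the same library at the same depth, and a mix of cell types within a class would also raise them. The mean mevalonate and later sums in the control were 6.52 and 9.56 UMIs in astrocyte-like cells. They were 1.73 and 1.47 in tanycyte-like and 2.62 and 2.34 in neuron-like cells. Counting error lowers r more where sums are small, so r cannot be compared between classes.

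Lists of neighbouring pathways in astrocyte-like cells are given beside the same background, 11.4% of genes higher by the fold and 11.9% lower. Of 19 genes of fatty acid synthesis and desaturation, 17 were measured, and 5 were higher by the fold and 0 lower, with a median log2 ratio of 0.09. Acss2, which makes acetyl-CoA from acetate, was at 67.5 CPM in the control and 142 CPM in dHet, a ratio of 2.10 (1.76 to 2.52). Acsl3, an acyl-CoA synthetase, was at 567 and 917 CPM (1.62, 1.52 to 1.73), and Scd1, the desaturase that makes oleic acid, at 71.4 and 107 CPM (1.499, 1.246 to 1.809). Elovl6, a fatty acid elongase, was at 78.1 and 111 CPM (1.42, 1.19 to 1.70).

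The 11 genes of SREBP processing and sterol-regulated degradation, all measured, had 1 higher and 3 lower by the fold (background 11.4% and 11.9%) and a median log2 ratio of -0.13. Rnf145, a ubiquitin ligase known to act on sterol-regulated proteins, stood at 0.673 of the control (0.505 to 0.895). Of 26 genes of cholesterol turnover, efflux and uptake, 18 were measured, with 3 higher by the fold and 0 lower and a median of -0.04. Scarb1, a lipoprotein receptor, had a ratio of 1.43 (1.15 to 1.78) and Apoc1, an apolipoprotein, 1.45 (1.18 to 1.79). Of the 10 genes of electron carriers and other isoprenoid branches, 3 were higher by the fold and 0 lower, with a median log2 ratio of 0.14. Cyb5r3, a reductase that feeds electrons to desaturases, had a ratio of 1.63 (1.12 to 2.40).

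Tanycyte-like cells did not show a higher enzyme sum. It was at 833 CPM (799 to 868) in the control and 867 CPM (824 to 912) in dHet, and the interval of the ratio (1.04, 0.975 to 1.11) lies below that of the astrocyte-like class. Of the 24 members measured, 3 were higher by the fold (9.82% of 8970 genes) and 1 lower (10.9%), with a median log2 ratio of 0.05 against -0.01 over all genes. Fdps was at 35.7 and 60.3 CPM (1.69, 1.27 to 2.25), Ebp at 16.2 and 29.0 CPM (1.79, 1.17 to 2.74) and Ggps1 at 28.4 and 40.6 CPM (1.43, 1.020 to 2.003). Hmgcs1 stood lower in dHet (172 against 138 CPM, 0.800, 0.682 to 0.937). Srebf1 did too, with 173 against 116 CPM (0.671, 0.566 to 0.794). Srebf1 was thus lower in dHet in both of these glial classes.

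The tanycyte-like class was uneven too. In the cluster led by Crym and Frzb (176 and 136 cells) the enzymes were at 991 and 1012 CPM (1.02, 0.950 to 1.10). In the cluster led by Scn7a and Cldn10 (71 and 41 cells) they were at 522 and 426 CPM (0.815, 0.683 to 0.969). Of 18 measured immediate early and dissociation genes in the class, 14 were lower in dHet by any amount. This is a wider count than the one by the fold given for astrocyte-like cells. Hspa1a, a heat shock gene, was at 527 CPM in the control and 98.5 CPM in dHet. The 10 neuron markers summed to 202 and 227 CPM. Among cells with no UMI of those markers (103 control, 41 dHet) the enzyme ratio was 0.848. With coarser clusters (Leiden resolution 0.5) the ratio of the class was 0.815, the same as that of the Scn7a and Cldn10 cluster. It is therefore not a separate result beside that cluster. The direction of the sum in this class turned with the cells taken.

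The oligodendrocyte lineage gave counts too small to resolve most single genes. In precursor-like cells the enzyme sum had a ratio of 1.00 (0.933 to 1.08), and of 24 members measured 7 were higher by the fold (14.5% of genes) and 3 lower (13.7%). Fdft1, squalene synthase, was at 79.4 and 123 CPM (1.54, 1.08 to 2.21) and Npc2, which hands cholesterol to NPC1 in the lysosome, at 145 and 194 CPM (1.34, 1.03 to 1.76). Ebp was at 52.5 and 28.0 CPM (0.534, 0.280 to 0.972). The intervals of the other 7 members past the fold included 1. The counts rested on few UMIs: with at least 200 UMIs asked of a gene, 1 member was higher and 0 were lower. Immediate early and dissociation genes were lower by any amount in 11 of 12 measured here as well.

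Oligodendrocyte-like cells had a higher enzyme sum in dHet, 2863 against 3394 CPM (1.19, 1.11 to 1.27). Of 23 members measured, 8 were higher by the fold (15.2% of 4189 genes) and 0 lower (23.3%), with a median log2 ratio of 0.20 against -0.08 over all genes. Srebf2 was at 46.4 and 93.9 CPM (2.02, 1.26 to 3.36), Ebp at 63.0 and 119 CPM (1.88, 1.248 to 2.901) and Npc2 at 289 and 529 CPM (1.83, 1.51 to 2.22). The 5 richest cells held 52.6% of the Npc2 UMIs and 58.7% of those of Hmgcs1. Over thinned cells 3 members were higher by the fold and 1 lower. At 4000 UMIs the median cell held 7.5 enzyme UMIs in the control (28 cells) and 7 in dHet (37 cells). Myelin genes differed in the same cells: Mobp was at 567 and 2992 CPM and Mbp at 6029 and 10425 CPM. The 8 oligodendrocyte markers summed to 29505 and 47724 CPM, and the part of this difference in the sterol genes was not tested.

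Neuron-like cells, the class with the deepest counts, were close to even. The enzyme sum had a ratio of 1.01 (1.00 to 1.02), 10 enzymes were higher and 10 lower, and the median log2 ratio of the 30 genes was 0.02 against -0.02 over all genes. Only Apoe was higher by the fold (0.621% of 14495 genes were) and 0 members were lower by it (1.4%). Apoe was at 19.3 and 26.2 CPM, with 25.3% of its UMIs in 5 cells, and without each library's 5 richest cells no member was past the fold. Some smaller differences had intervals that left out 1, for counting error only. The mix of neuron types in the class differed between the libraries, as the cell numbers below show, and its part was not tested. Fdps was at 105 and 126 CPM (1.20, 1.16 to 1.24), Fdft1 at 81.2 and 92.3 CPM (1.14, 1.09 to 1.18) and Sqle, squalene epoxidase, at 101 and 109 CPM (1.08, 1.04 to 1.12). Lss was at 8.40 and 10.7 CPM (1.27, 1.13 to 1.44), and Stard4 at 8.25 and 10.5 CPM (1.28, 1.13 to 1.45). On the lower side, Idi1 was at 53.1 and 48.2 CPM (0.907, 0.862 to 0.955), Mvk at 40.9 and 36.2 CPM (0.886, 0.835 to 0.940) and Npc1, the lysosomal membrane protein that releases cholesterol, at 20.3 and 16.8 CPM (0.824, 0.757 to 0.898).

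The even sum of neurons covered types that differed in opposite directions. In Agrp/Npy-like cells, the neurons known to drive feeding, the enzymes were lower in dHet, 1369 against 1228 CPM (0.897, 0.872 to 0.923). By any amount 16 of 20 enzymes were lower, where the median log2 ratio over all genes was -0.01. Of 30 members measured, 5 were lower by the fold (5.92% of 10903 genes) and 2 higher (5.54%), with a median log2 ratio of -0.10 against -0.01. The steps after lanosterol were at 0.848 of the control (0.809 to 0.890). Msmo1 was at 167 and 127 CPM (0.764, 0.701 to 0.832), Cyp51 at 92.5 and 72.8 CPM (0.787, 0.701 to 0.883) and Hsd17b7 at 6.85 and 3.72 CPM (0.544, 0.335 to 0.881). Idi1 was at 60.8 and 43.2 CPM (0.711, 0.615 to 0.823). Insig1 was at 32.8 and 25.8 CPM (0.784, 0.645 to 0.954), against its higher dHet level in astrocyte-like cells.

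Higher in dHet Agrp/Npy-like cells were Scap, at 16.5 and 22.1 CPM (1.34, 1.05 to 1.73), and Abca1, with 14 UMIs in the control and 55 in dHet (2.38, 1.31 to 4.64). Apoe was lower, at 47.1 and 28.2 CPM, but 5 cells held 60.4% of its UMIs. These cells numbered 197 in the control and 363 in dHet, with a median of 30379 and 26422 UMIs. Of 15 measured immediate early and dissociation genes 14 were lower in dHet by any amount, Fos at 341 and 76.0 CPM. Its part in the sterol genes was not tested.

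Pomc-like cells, which oppose feeding, showed the reverse direction. Their enzymes were at 1630 CPM in the control (84 cells) and 1892 CPM in dHet (176 cells), a ratio of 1.16 (1.12 to 1.20). By any amount 15 of 19 measured enzymes were higher, where the median log2 ratio over all genes was -0.03. Of 28 members measured, 4 were higher by the fold (5.49% of 9576 genes) and 2 lower (8.97%), with a median log2 ratio of 0.17 against -0.03. Fdps was at 152 and 216 CPM (1.42, 1.26 to 1.60), Nsdhl, a sterol dehydrogenase, at 57.0 and 78.5 CPM (1.38, 1.13 to 1.69), Insig1 at 31.3 and 45.1 CPM (1.44, 1.11 to 1.90) and Lss at 10.6 and 17.3 CPM (1.64, 1.04 to 2.67). Npc1 was at 21.1 and 12.1 CPM (0.574, 0.388 to 0.851). Apoe was at 34.2 and 11.3 CPM, with 40.6% of its UMIs in 5 cells. The sum depended on which cells were kept: its ratio was 1.06 over the cells of the 2 full matrices and 1.08 under a stricter filter. Of 11 measured immediate early and dissociation genes 9 were lower in dHet by any amount, with Fos at 109 and 39.7 CPM. Among the 9 were Jun (0.974), Jund (0.976) and Dnajb1 (0.945), which were not past the fold.

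In the other named types the summed enzymes lay on both sides of 1, and the Ghrh/Th/Gal-like ratio was close to the 0.897 of Agrp/Npy-like cells. The enzyme ratio was 1.05 (1.02 to 1.09) in Sst-like, 0.912 (0.869 to 0.958) in Ghrh/Th/Gal-like and 1.01 (0.956 to 1.08) in Kiss1/Tac2-like cells. In Sst-like cells 3 of 26 measured members were higher by the fold (4.51% of genes) and 1 lower (6.27%), the higher ones being Fdft1 at 68.0 and 95.7 CPM (1.41, 1.22 to 1.62), Cyp51 at 68.0 and 86.7 CPM (1.27, 1.10 to 1.47) and Lbr at 4.92 and 7.94 CPM (1.61, 0.950 to 2.77). In Ghrh/Th/Gal-like cells 1 of 24 was higher (4.85%) and 2 lower (8.45%). The higher one was Apoe, at 10.9 and 66.0 CPM (6.08, 4.20 to 9.07), but 5 cells held 74.7% of its UMIs. Cyp51 was at 75.7 and 55.9 CPM (0.738, 0.610 to 0.893). In Kiss1/Tac2-like cells 2 of 22 were higher (7.02%) and 1 lower (12.8%), and Fdps was at 101 and 128 CPM (1.27, 1.04 to 1.54). These classes share the 2 libraries, so agreement or contrast between them is not a replicate.

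**Figure D5:**
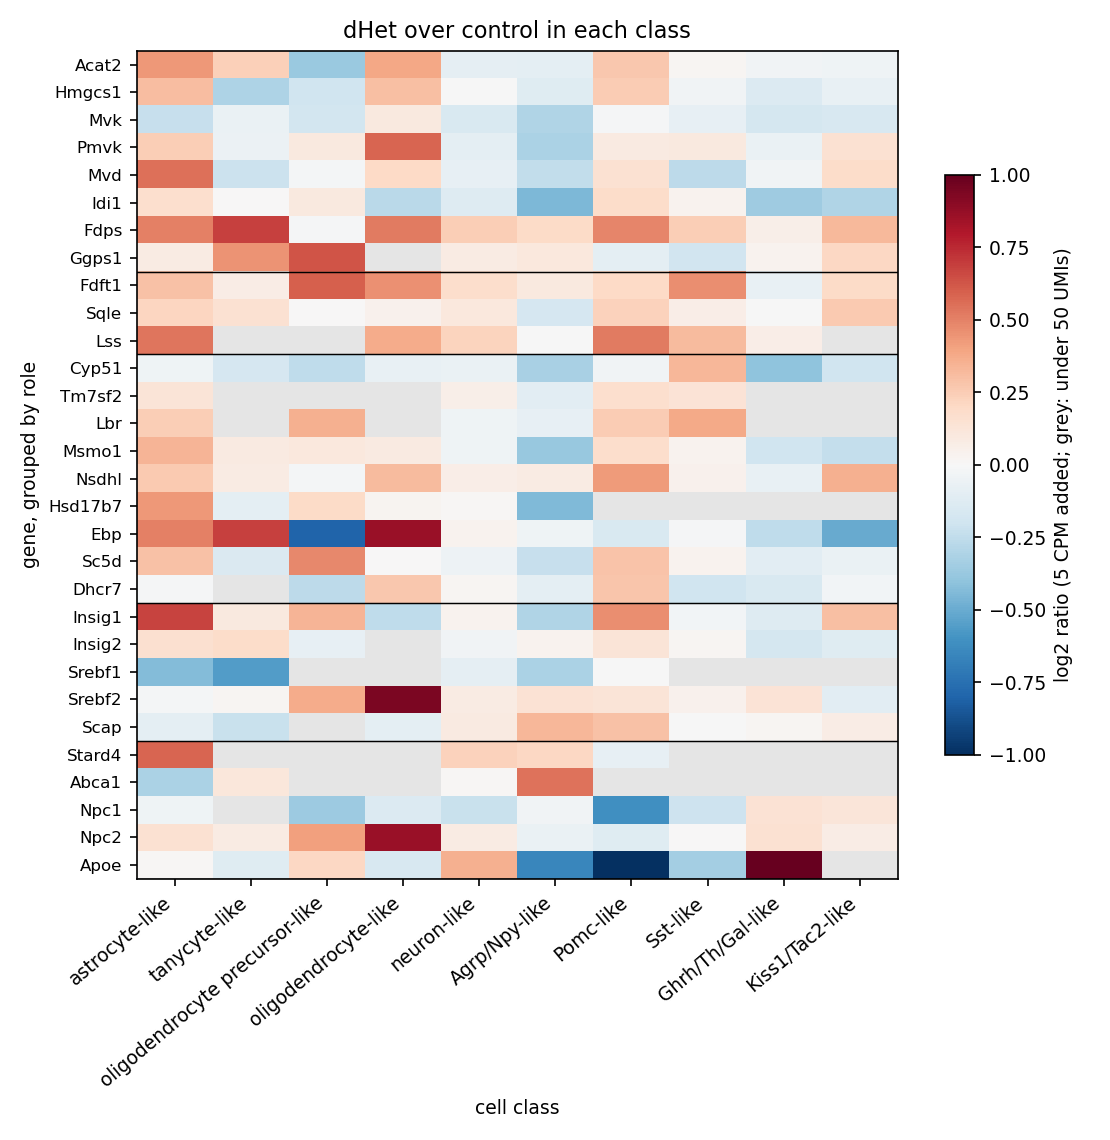
Log2 ratio of dHet over control with 5 CPM added (colour, red higher in dHet, blue lower, limits at -1 and 1) for each of the 30 genes (rows, grouped by role) in 10 classes (columns), grey where a gene had under 50 UMIs in the class. Red fills most of the enzyme rows of astrocyte-like and Pomc-like cells, blue most of those of Agrp/Npy-like cells, and Fdps is red in each column but that of oligodendrocyte precursor-like cells (ratio 0.989).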

How the data were processed

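Single cells of the arcuate nucleus and median eminence were profiled in 2 droplet libraries, 1 per genotype, each a pool of 5 mice. The deposited values are whole UMI counts per gene and cell. Per the file headers and the submitters' processing notes, the authors made them with Cell Ranger 3.0.2 on mm10. The merged table holds 7418 cells and 20210 genes. Barcodes of the full matrices (3694 control, 4278 dHet) that are missing from it had at least 20% mitochondrial UMIs or at least 7505 genes. The rule by which the authors chose cells is not stated in the labels or headers. No other column of per-sample values was present (0).

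From these counts, cells with at least 500 genes and at most 20% mitochondrial UMIs were kept. Scrublet, set to 4% expected doublets, marked 0.436% of control and 0.231% of dHet cells, too few to rely on, and the labels do not state whether doublets were removed before deposit, so an alternative left out the highest 4% of scores. Cells were clustered with Scanpy 1.11.5 (2000 variable genes without the 30 genes, the lipid lists, Irx3 and Irx5, then 30 principal components, 15 neighbours and Leiden resolution 1). A cluster was called neuron-like with at least 7 of 10 neuron markers each in at least 25% of cells. Other names needed at least 3 markers found at that share, with at least 2 of them among the 10 leading genes. These numbers were set after the leading genes had been seen, and clusters that missed them stayed unnamed.

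UMIs were summed per class and library and given as CPM. Class levels carry exact Poisson intervals and ratios exact conditional binomial intervals, both at 95%. A gene counted as measured in a class if it had at least 50 UMIs there in total, and a class needed at least 20 cells in each library. For single genes 5 CPM were added before log2 ratios. Counts of genes higher or lower by any amount have no share over all genes beside them. Per class, members described in full were the 6 with the largest log2 ratios and those that the role order called for, and up to 4 genes of each further list. The interval and fold steps were run on simulated counts whose only spread was counting error, and thinning on a simulated table. This checked the code. It cannot show how the intervals hold where UMIs gather in few cells. Alternatives changed the cluster resolution, the cells kept, doublets, depth, weights, the denominator, the added CPM, the minimum UMIs and the fold. The 30 genes, the lists and the markers were chosen with earlier results of these data known.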

Additional observations from a re-analysis of the deposited data

Results flagged for a closer look

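The summed synthesis enzymes lay on opposite sides of 1 (dHet over control) among neuron types of the same libraries. The ratio was 1.16 in Pomc-like and 1.05 in Sst-like cells, against 0.897 in Agrp/Npy-like and 0.912 in Ghrh/Th/Gal-like cells. The 2 clusters of astrocyte-like cells also lay on opposite sides, at 1.22 in the larger cluster led by Agt and at 0.854 in the smaller one led by Fgfr3. With 1 library per genotype these differences between types and clusters were not tested.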

How the results depend on the processing

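With 1 library per genotype no library could be left out. No paired analysis was possible because each genotype has 1 library. Over all alternatives the summed enzyme ratio (dHet over control) stayed above 1 in astrocyte-like (1.07 to 1.28) and Pomc-like cells (1.06 to 1.21) and below 1 in Agrp/Npy-like cells (0.886 to 0.936). In tanycyte-like cells it ran from 0.815 to 1.11. The last 2 settings named below, and leaving out cells under 4000 UMIs, were chosen after seeing the data. Over cells without a neuron marker UMI the precursor-like and oligodendrocyte-like classes had too few cells for a value. Values below are those that moved, and the cause was not tested.

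Ratios of summed enzymes moved as follows. The neuron-like ratio passed to the other side of 1 over the cells of the full matrices, at 0.999, and was 1.03 both after thinning and with the other denominator. The Pomc-like ratio was 1.06 over the full matrices, 1.08 under the stricter cell filter and 1.21 without the 5 highest cells. The Agrp/Npy-like ratio was 0.936 after thinning. The astrocyte-like ratio was 1.27 after thinning, 1.28 with cells weighted equally, 1.07 with clusters weighted equally and 1.24 without the highest 4% of doublet scores. The tanycyte-like ratio was 0.815 at Leiden resolution 0.5, 1.11 under the stricter filter, 0.950 with clusters weighted equally and 0.848 without neuron marker UMIs. The value at resolution 0.5 equals that of the cluster led by Scn7a and Cldn10 and is not separate from it. The oligodendrocyte-like ratio was 1.07 after thinning, 1.41 with cells weighted equally and 1.37 without the 5 highest cells. Median log2 ratios moved to -0.17 (resolution 0.5) and -0.13 (no neuron marker UMIs) in tanycyte-like, 0.35 (cells weighted equally) in astrocyte-like, and 0.41 (thinned) and 0.48 (without the 5 highest cells) in oligodendrocyte-like cells. The Pomc-like median ran from 0.062 to 0.278 over the alternatives.

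Counts of members past the fold moved with most settings. Over the alternatives the lower count in Agrp/Npy-like cells ran from 1 to 9 and the higher count from 0 to 5. In Pomc-like cells the higher count ran from 0 to 11 and the lower count from 0 to 3. In astrocyte-like cells 16 were higher with cells weighted equally and 1 at a fold of 1.5, and 2 were lower after thinning and 0 at a fold of 1.5. In tanycyte-like cells the higher count was 6 under the stricter filter, 5 after thinning, 7 with no minimum and 1 with at least 200 UMIs. The lower count there was 3 at resolution 0.5, 5 without neuron marker UMIs, 0 at a fold of 1.5, and 2 at resolution 2, over the full matrices, after thinning and without the 5 highest cells. In precursor-like cells the higher count was 4 at resolution 0.5, with cells weighted equally and without the 5 highest cells, 3 after thinning, 13 with no minimum, 1 with at least 200 UMIs and 2 at a fold of 1.5. The lower count was 5 at resolution 0.5 and after thinning, 0 with at least 200 UMIs and 1 at a fold of 1.5. In oligodendrocyte-like cells 3 were higher after thinning, with at least 200 UMIs and at a fold of 1.5, and 14 with cells weighted equally. Lower there were 1 over the full matrices and after thinning, and 2 with cells weighted equally or no minimum. In neuron-like cells 2 were higher after thinning, and 0 at resolution 2, over the full matrices, with cells weighted equally, without the 5 highest cells, with 20 CPM added, at a fold of 1.5 and without the highest doublet scores.

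Levels relative to neuron-like cells are given for the control, then dHet. In astrocyte-like cells they were 3.26 and 3.96 under the stricter filter, 3.24 and 4.02 after thinning, and 3.07 and 3.62 with the other denominator. The control level was 3.10 without the 5 highest cells and without neuron marker UMIs. The dHet level was 3.94 over the full matrices, 3.89 with doublets kept, 3.95 with cells weighted equally and 3.96 without the highest doublet scores. Tanycyte-like cells were at 0.403 and 0.325 at resolution 0.5, 0.554 and 0.584 at resolution 2, 0.592 and 0.585 without the 5 highest cells, 0.557 and 0.467 without neuron marker UMIs, and 0.714 in dHet under the stricter filter. Precursor-like cells were at 1.59 and 1.58 under the stricter filter, 1.93 and 1.84 after thinning, 1.79 and 1.83 with cells weighted equally, and 1.62 and 1.59 without the 5 highest cells. Oligodendrocyte-like cells were at 1.84 and 1.92 after thinning, 1.64 and 2.26 with cells weighted equally, and 1.14 and 1.54 without the 5 highest cells. They were thus below precursor-like cells without the 5 highest cells in both libraries, and in the control also after thinning and with cells weighted equally. Tanycyte-like cells were lower in dHet than in the control at resolution 0.5, without the 5 highest cells and without neuron marker UMIs, the reverse of 0.643 and 0.662 over all cells. Single genes in classes of under 100 cells were limited by depth.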

Other observations

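In cells not described so far, the intervals of the summed synthesis enzyme ratio included 1. A cluster left unnamed and led by S100a6, Pdzph1 and Tnfrsf19 (131 control and 103 dHet cells) held 1186 CPM in the control and 1209 CPM in dHet, a ratio of 1.02 (0.939 to 1.11). The dividing cells (59 and 51) held 1572 and 1556 CPM, a ratio of 0.990 (0.907 to 1.08). A shallow unnamed cluster led by Sparc and Ifitm3 (122 and 65 cells), with a median depth of 0.0790 of the library median, held 907 and 808 CPM, a ratio of 0.891 (0.739 to 1.07). The pars tuberalis-like cells, led by Cga and Tshb, numbered 38 in the control and 12 in dHet, too few to compare.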
